A study of Homo sapiens with 6 samples.

Results

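The genes described here encode the subunits of oxidative phosphorylation, the process by which mitochondria turn reducing equivalents into ATP. They were chosen by gene symbol alone as the 13 protein-coding genes of the mitochondrial genome plus the nuclear genes named for subunits of complexes I to V, which gave 102 genes of the 34834 genes with a quantified transcript. Of these, 89 are nuclear. Complex I has 46 members (39 nuclear), complex II 4 (all nuclear), complex III 11 (10 nuclear), complex IV 20 (17 nuclear) and complex V 21 (19 nuclear). The complex was also assigned by symbol alone, which places NDUFA4 and NDUFA4L2 in complex I and COX7A2L in complex IV.

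The samples were SKOV3 cells, a human ovarian cancer line, transfected either with a pool of siRNAs against the long non-coding RNA DNM3OS or with non-targeting siRNA. Both groups received 50 nM siRNA and were collected at 48 h, and each group has 3 samples. Total RNA depleted of ribosomal RNA was sequenced with a stranded kit, and the authors estimated a read count and a TPM (abundance scaled to transcript length and to the sample's total) for each transcript. Whether the 3 samples of a group came from separate cultures is not given in the sources used here, so the p-values measure the spread between these samples, which may be technical.

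Oxidative phosphorylation depends on 2 genomes. Complexes I to IV pass electrons from NADH and succinate to oxygen and, except for complex II, pump protons across the inner membrane, and complex V (ATP synthase) uses the proton gradient to make ATP. The mitochondrial genome is transcribed from both strands as long precursors that are cut into shorter RNAs. Nearly all of its protein-coding genes are read from one strand and MT-ND6 from the other. Every other subunit, and all of complex II, is imported from the cytosol.

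Each sample held between 1523046 and 1868325 estimated counts on annotated genes, so 3 counts corresponded to between 1.606 and 1.970 CPM (counts scaled to library size). The files list none of the 6 transcripts that the annotation gives for DNM3OS, so the targeted RNA itself could not be checked in these samples. Of the 8 SKOV3 markers, KRT8 (TPM 2613 to 5740) and ERBB2 (208 to 429) were the highest, KRT18, KRT19, EPCAM (10.2 to 31.6) and PAX8 were listed in every sample, and WT1 and MUC16 were at 0 to 4 and 0 to 2 counts. The 8 summed to 3314 to 6222 in knockdown and 3027 to 4417 in control samples. The 5 fibroblast markers summed to a TPM of 78.5 to 112.5 in knockdown and 75.3 to 96.7 in control samples, the 4 leukocyte markers to 98.9 to 101.5 and 85.3 to 100.3, with CD14 at 0 throughout and PTPRC at 61.6 to 92.5, above EPCAM, and the 3 endothelial markers to 7.53 to 16.7 and 7.75 to 13.1. Knockdown sample 1 stood apart from its replicates. Its counts differed from those of knockdown samples 2 and 3 by a chi-square of 11.3 and 11.8 per degree of freedom, against 2.12 to 4.58 within the other pairs of a group. The 79 cytosolic ribosomal protein genes held 0.194% of gene counts in that sample and 0.355% and 0.371% in the other knockdown samples, against 0.519%, 0.291% and 0.499% in the controls. PLLP, which is no subunit gene, took 15.7% to 22.2% of gene counts in every sample. The strand setting of the quantification is not given in the sources used here, and what it does to a gene that lies opposite another gene was not tested.

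Some neighbouring genes of the mitochondrial genome touch or overlap, and 3 such places are shown. MT-ATP6 and MT-CO3, not shown, also share 1 base. The sequences below are from chromosome M of GRCh38 and read 5′ to 3′ on its plus strand. In the first, capitals mark the 46 bases that belong to both MT-ATP8 (chrM:8366-8572) and MT-ATP6 (chrM:8527-9207). In the second, they mark the 7 bases shared by MT-ND4L (chrM:10470-10766) and MT-ND4 (chrM:10760-12137). In the third, they mark the last codon of MT-ND5 (chrM:12337-14148) followed by the last codon of MT-ND6 (chrM:14149-14673), which lies on the minus strand and so is read in reverse complement. The stretches span chrM:8497-8602, chrM:10730-10796 and chrM:14119-14178.
MT-ATP8/MT-ATP6: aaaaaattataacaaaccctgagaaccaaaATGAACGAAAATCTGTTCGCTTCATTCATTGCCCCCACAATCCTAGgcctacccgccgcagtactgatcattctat
MT-ND4L/MT-ND4: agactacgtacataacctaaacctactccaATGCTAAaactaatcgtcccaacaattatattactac
MT-ND5/MT-ND6: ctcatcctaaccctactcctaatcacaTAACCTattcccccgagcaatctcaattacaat

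The first 2 pairs are read from the same strand, and reads that lie wholly within the capitals fit both genes. As annotated, MT-ND5 and MT-ND6 share no base and face each other tail to tail.

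The 13 mitochondrially encoded genes were all quantified and all tested. Per length, their mean TPM over the 6 samples ran from 126 for MT-ATP6 to 1068 for MT-ND3, with a median of 423, while the 89 nuclear genes had a median of 21.7. MT-ND3, a complex I subunit, was listed at a TPM of 1239.7, 1061 and 1006.5 in knockdown samples 1 to 3 and at 907, 1069 and 1127 in the controls. MT-CO1, the catalytic core of complex IV, was at 770.3, 1064 and 1324 in knockdown and 1032, 927 and 1071 in control samples. MT-ND3 was highest in knockdown sample 1 and lowest in control sample 1, MT-CO1 was both lowest and highest in knockdown samples, and the groups overlapped for each. In descending order of mean TPM came MT-ND3, MT-CO1, MT-CYB, MT-CO3, MT-ND5, MT-ND6, MT-CO2, MT-ND4, MT-ND4L, MT-ND2, MT-ATP8, MT-ND1 and MT-ATP6. The 6-sample ranges of neighbours in this order overlapped at each step except between MT-ND4L (lowest 245) and MT-ND2 (highest 208). The 4 lowest genes are thus set off from the 9 others. They are MT-ATP6 and MT-ATP8, the 2 ATP synthase subunits, and MT-ND1 and MT-ND2, both complex I subunits.

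MT-ND6, the 1 member on the other strand, sat in the middle of this order. Its TPM was 701, 392.1 and 339 in knockdown and 319, 414 and 403 in control samples. Knockdown sample 1 was the highest, and the other 5 samples lay close together. Against MT-ND5, the gene it abuts, its TPM was 0.826, 0.497 and 0.428 as large in knockdown samples and 0.576, 0.566 and 0.488 as large in controls. Whether precursor RNA from the opposite strand entered the MT-ND6 values under the unstated strand setting was not tested. MT-ATP8 rests on 8 to 16 counts per sample. Its effective length, the part of the transcript on which a fragment of the library's size can start, was only 64.4 to 68.7 bases. With so few counts, its TPM (mean 163) is far less precise than that of MT-CO1.

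**Figure D1:**
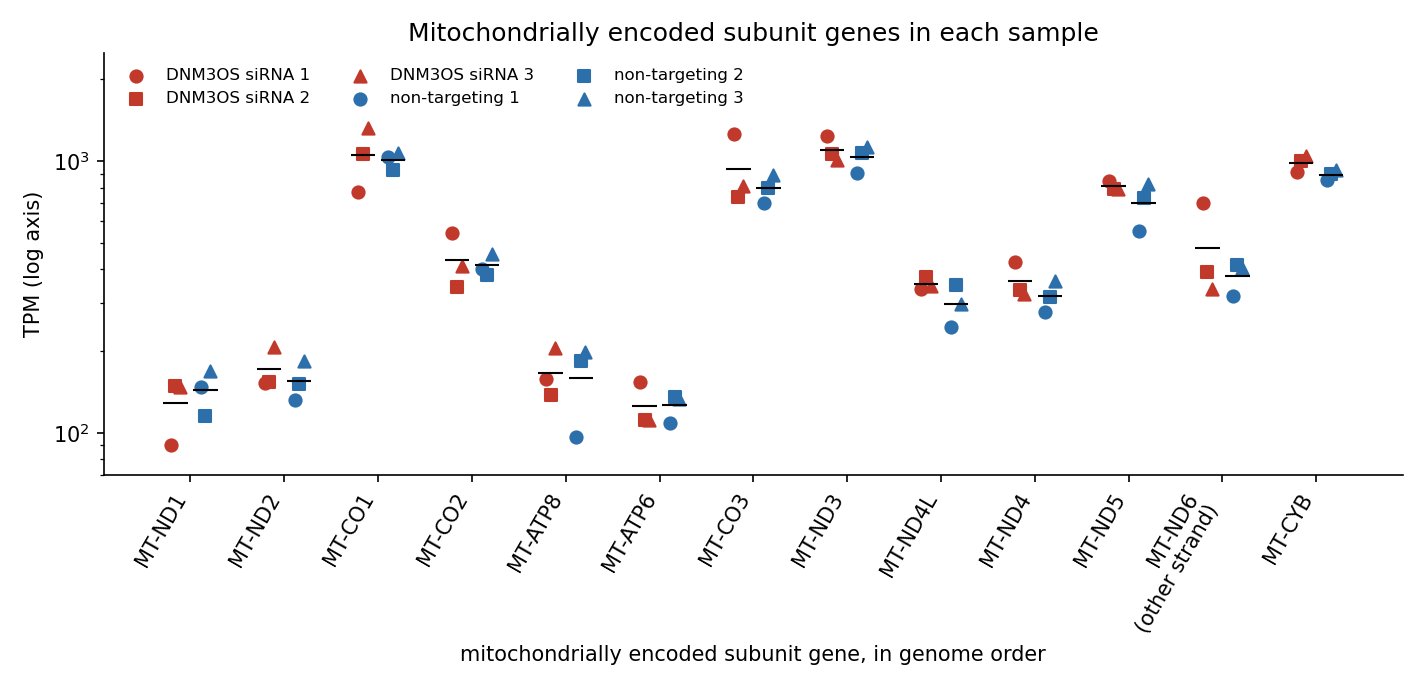
TPM (log axis) of the 13 mitochondrially encoded genes in genome order. Each point is a sample (red, DNM3OS siRNA; blue, non-targeting siRNA; the symbol gives the sample number) and the black line is the group mean. The groups overlap for every gene, and MT-ND6, encoded on the other strand, lies between 319 and 701.

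Part of the sequence of the mitochondrial genes also exists as copies in the nuclear genome. Of the stretches of 31 bases in MT-CO1, 66.7% occur in another quantified transcript in the same orientation, chiefly MTCO1P12. The share was 63.7% for MT-ATP6, 56.9% for MT-ND2, 50.5% for MT-CO2 and 45.0% for MT-CO3, and lowest for MT-CYB (4.95%) and MT-ND3 (3.48%). The copies with most shared sequence were given a mean of 0 to 19.0 counts per sample. The highest were MTND1P23, with 19.0 beside 128 for MT-ND1, and MTATP6P1, with 14.3 beside 78.9 for MT-ATP6. Both MT-ND1 and MT-ATP6 are among the lowest mitochondrial genes by TPM. How the estimate divided reads between a gene and its copy was not tested.

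DNM3OS knockdown left the mitochondrial genes without a call in either direction. In edgeR's exact test, 0 of the 13 were at least 2-fold changed at an adjusted p below 0.05, and 0 had an unadjusted p below 0.05. The same test called 0 of the 63 nuclear members that had enough counts to be tested. Among all 11814 tested genes 1 was called down (0.00846%) and 0 up (0%), and the counts of members are to be read against that background. Of the 76 tested members, 1 had an unadjusted p below 0.05 in the downward and 1 in the upward direction, against 1.91% and 1.01% of all tested genes. edgeR's quasi-likelihood test and DESeq2 also called 0 members, with 1 down and 1 up, and with 0 and 0, at an unadjusted p below 0.05. The adjusted p from edgeR's exact test was 1 for every member. On counts simulated for this comparison the test recovered 97 of 100 genes changed by 2 on the log2 scale but 41 of 100 changed by 1, so smaller differences than these were mostly not detectable at this depth. The changed genes were drawn only from genes above a minimum mean count. A nuclear member had a median of 20 counts per sample, and recovery at such counts was not tested.

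As a description, the medians of the 2 genomes of origin differed in sign, but the values of single genes overlapped. The nuclear values ran from -1.23 to 1.14 and so enclosed all mitochondrial ones. Of the 13 mitochondrial genes, 11 had a positive log2 fold change (knockdown against control), and the median was 0.149, against 0.0042 over all genes tested. The values ran from -0.13 ± 0.35 (SE) for MT-ND1 to 0.31 ± 0.27 for MT-ND6. MT-CO3 was at 0.21 ± 0.19, MT-ND5 at 0.20 ± 0.18, MT-CYB at 0.16 ± 0.14 and MT-CO1 at 0.086 ± 0.30. Of the 63 nuclear genes, 41 had a negative value, and the median was -0.060. It was -0.19 with no filter on low counts, -0.20 with a filter of 1 CPM in 3 samples and -0.17 with length-scaled counts. In most members, on either side, the SE was as large as the difference.

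The shares of counts give the same quantities per sample. Mitochondrial genes held 0.429%, 0.381% and 0.413% of gene counts in knockdown samples 1 to 3 and 0.325%, 0.374% and 0.4001% in the controls. The means were 0.408% ± 0.0243 (SD, n = 3) and 0.366% ± 0.0378, a ratio of 1.11. Control sample 1 was the lowest and control sample 3 lay within the knockdown range, so the groups overlapped. Nuclear members held 0.334%, 0.317% and 0.333% against 0.343%, 0.348% and 0.320%. Their means of 0.328% ± 0.00989 and 0.337% ± 0.0150 had a ratio of 0.973, and these groups overlapped too.

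Setting the genomes against each other gave 1.28, 1.20 and 1.24 mitochondrial counts per nuclear member count in knockdown and 0.949, 1.07 and 1.25 in control samples. Control samples 1 and 2 were below all knockdown samples, and control sample 3 was above 2 of them. The position of control sample 1 weighs on this comparison. It was the lowest of the 6 samples for 9 of the 13 mitochondrial genes, and without it the median log2 fold change of the mitochondrial genes was 0.043 and the ratio of shares 1.05. Without control sample 3 they were 0.25 and 1.17, and without knockdown sample 3 they were 0.078 and 1.105.

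**Figure D2:**
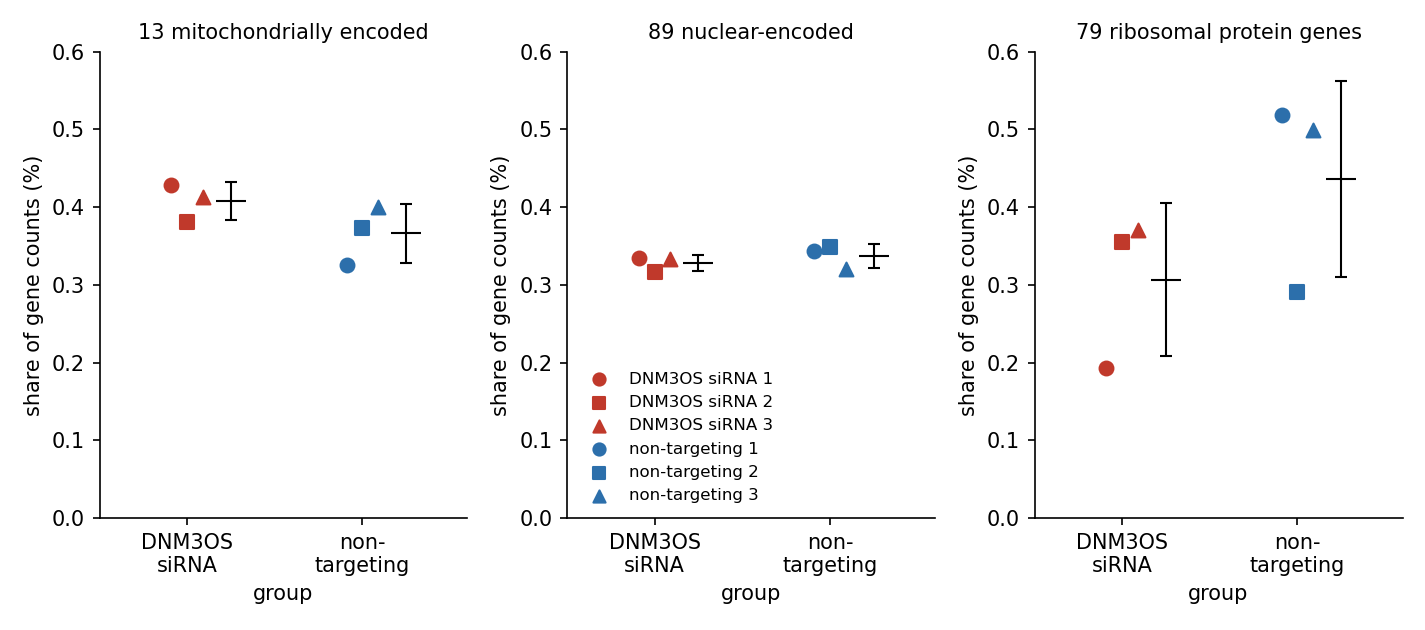
Share of gene counts (%) of the 13 mitochondrially encoded genes, the 89 nuclear-encoded genes and, for comparison, the 79 cytosolic ribosomal protein genes. Points are samples and black bars are the mean and SD of 3 samples. The mitochondrial shares lie between 0.325% and 0.429% and the nuclear shares between 0.317% and 0.348%, with overlapping groups, while the ribosomal protein share varies from 0.194% to 0.519%.

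The nuclear members were far less deeply covered than the mitochondrial ones. A nuclear member had a median of 20 counts per sample and a mitochondrial member 223. For 24 nuclear members at least 1 sample held fewer than 3 counts, and 26 did not pass the filter on low counts, which needs about 10 counts in 3 samples. The untested genes include well known subunits such as SDHB (the iron-sulfur subunit of complex II, 1 to 8 counts), COX6A1 (1 to 14) and COX6B1 (0 to 6). Together the untested nuclear members held only 69, 107 and 122 counts in knockdown and 228, 80 and 190 in control samples. Those passing were 30 of 39 nuclear members of complex I, 3 of 4 of complex II, 8 of 10 of complex III, 7 of 17 of complex IV and 15 of 19 of complex V.

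By complex, the median TPM of nuclear members was 20.8 (I), 21.2 (II), 24.7 (III), 15.6 (IV) and 32.0 (V). Only 3 nuclear genes had a mean TPM above that of the lowest mitochondrial gene. They were ATP5PD (1737), NDUFB2 (183) and NDUFA3 (158). ATP5PD, the peripheral stalk subunit d of ATP synthase, was thus listed above every other gene of the pathway, MT-ND3 included. The next were NDUFA2 (103), ATP5F1C (96.6), COX5B (86.3), ATP5MG (81.0), COX4I1 (80.8), ATP5F1A (78.2) and NDUFV2 (72.5).

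The counts of ATP5PD lay almost wholly on a transcript other than its coding messenger RNA. Its TPM was 1191, 1742 and 2203 in knockdown and 1855, 1831 and 1599 in control samples, and it held 22.1% to 37.3% of all counts on nuclear members. Of its counts, 96.2% were on ENST00000582341, a retained-intron transcript of 979 bases, and 1.46% and 0.0679% on its 2 protein-coding transcripts, of which the more abundant had a mean of 24.5 counts against 1608. Of the bases of that transcript, 28.2% lie opposite exons annotated on the other strand. Bases 396 to 671 of the transcript are the reverse complement of RN7SL573P, a gene of 276 bases. In an alignment, 81.9% of the bases of RN7SL573P were identical to the 7SL RNA gene RN7SL1. What this stretch and the unstated strand setting did to the counts of the transcript, and so to the rank of ATP5PD, was not tested. Nuclear members without ATP5PD held 0.229% ± 0.0277 of gene counts in knockdown and 0.237% ± 0.00606 in control samples, a ratio of 0.966, close to the ratio with it.

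Other nuclear members also drew their counts from transcripts that encode no subunit. Of the 86 nuclear members with counts, 27 had under 50% of them on protein-coding transcripts, among them 4 of the 10 with the highest TPM. Besides ATP5PD these were NDUFA2 (13.3%), ATP5F1C (18.7%) and COX5B (3.1%). SDHA, which holds the flavin of complex II and oxidizes succinate, had none of its 34 to 87 counts per sample on a protein-coding transcript, and the same held for UQCRH, the hinge protein of complex III. Over all nuclear members without ATP5PD, 74.9% ± 2.1 (SD, n = 3) of counts in knockdown and 74.9% ± 1.4 in control samples were on protein-coding transcripts, so the make-up was about equal in the groups. For retained introns the shares were 17.2% ± 3.1 and 16.8% ± 0.59.

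Some members face exons of another gene. For 29 nuclear members an exon of a gene on the opposite strand overlaps their own exons, and for 60 none does. NDUFB2, a small complex I subunit, had 62.2% of its counts on ENST00000476279, a transcript with 83.4% of its bases opposite exons that include those of the kinase gene BRAF. The median TPM was 22.6 for members facing an exon and 19.6 for the others, and the median log2 fold change was -0.052 and -0.0999. The length of a transcript matters as well. SDHC, a membrane anchor of complex II, was quantified on a transcript of 13566 bases that the annotation now gives as 1308 bases, which bears on its TPM of 18.1.

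**Figure D3:**
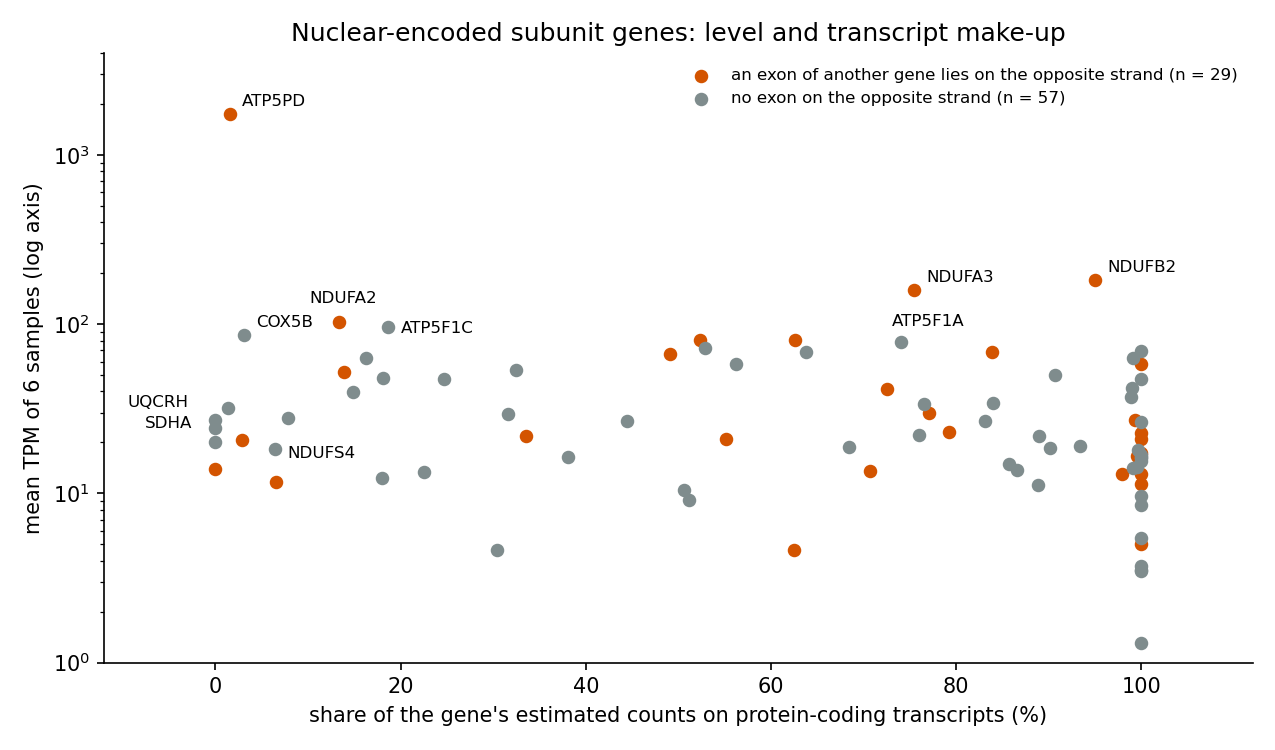
Mean TPM of 6 samples (log axis) of the 86 nuclear-encoded genes with counts, against the share of each gene's estimated counts that lies on protein-coding transcripts. Orange points face an exon of another gene on the opposite strand and grey points do not. ATP5PD stands at 1737 TPM with almost no counts on protein-coding transcripts, and 27 genes lie below 50%.

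Among the nuclear members of complex I the median log2 fold change was -0.20, with 19 of 30 tested genes below 0. For the others the medians were -0.034 for complex II, -0.061 for complex III, -0.042 for complex IV and -0.047 for complex V. With NDUFA4 and NDUFA4L2 counted in complex IV and COX7A2L left out, they were -0.20 for complex I and -0.025 for complex IV. In none of the complexes was a gene called. The medians moved with single libraries. With all samples complex I had the lowest median, but of the 6 fits without 1 sample it was lowest in 1, without control sample 3. That of complex I was -0.062 without knockdown sample 2, -0.091 without control sample 1 and -0.13 without knockdown sample 1. That of all nuclear members was -0.18 without control sample 2, -0.16 without knockdown sample 3, -0.11 without control sample 3 and -0.030 without control sample 1. With 1 sample left out, the medians ran from -0.16 to 0.026 for complex II, from -0.31 to 0.035 for complex III, from -0.21 to 0.085 for complex IV and from -0.15 to -0.0051 for complex V.

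**Figure D4:**
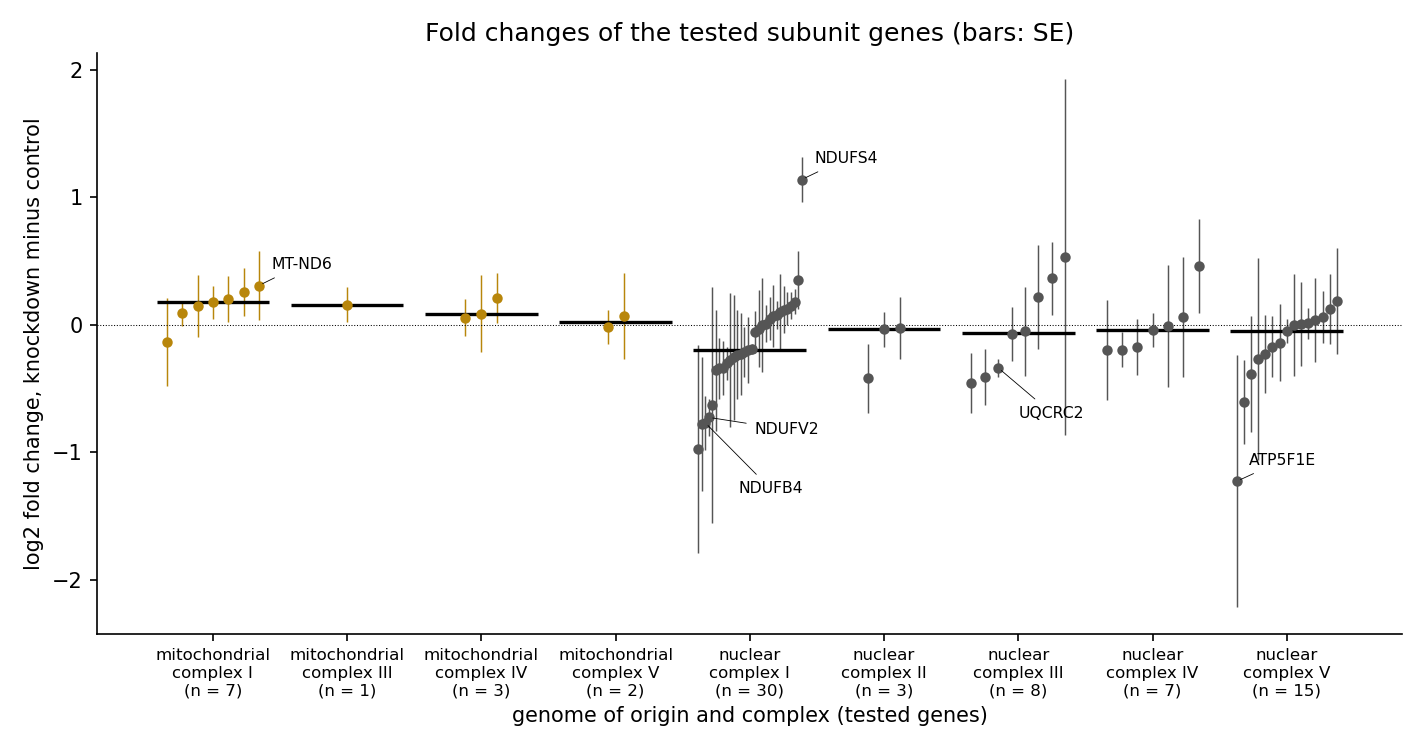
Log2 fold changes (knockdown minus control) of the 76 tested genes by genome of origin and complex. Points are genes with their SE, thick lines are medians, and the dotted line is 0. Of 13 mitochondrial genes 11 lie above 0, 41 of 63 nuclear genes lie below it, and NDUFS4 and ATP5F1E are the extremes.

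In 5 tested members the knockdown and control samples did not overlap. In 4 the knockdown samples were all lower and in 1 they were all higher, which is 5.26% and 1.32% of the 76 tested members, against 3.56% and 4.42% of all 11814 tested genes. For each of the 5 the exact permutation test over the 20 assignments of samples gave p = 0.1 (two-sided), the smallest it can give. All 5 are nuclear, and 4 belong to complex I. Of the 76 tested members 63 are nuclear, and 30 of these belong to complex I.

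NDUFS4 was the member higher after knockdown. It encodes an accessory subunit near the NADH-oxidizing end of complex I and lies at chr5:53560633-53683338. Its CPM was 8.37, 7.43 and 11.2 in knockdown and 3.99, 4.58 and 3.53 in control samples, which rests on 18, 11 and 16 counts against 7, 7 and 6. The log2 fold change was 1.14 ± 0.18 (SE), the largest among the members, with p = 0.0121 in edgeR's exact test and an adjusted p of 1. All 3 knockdown samples were above all controls, but 91.3% of the gene's counts were on ENST00000507026, a transcript annotated for nonsense-mediated decay, and 6.4% on a protein-coding one. The difference thus rests mostly on that transcript.

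NDUFV2, NDUFB4, UQCRC2 and NDUFA2 were the members lower after knockdown. NDUFV2 is a core iron-sulfur subunit that takes part in NADH oxidation. Its CPM was 10.2, 11.5 and 9.82 in knockdown and 17.7, 14.4 and 20.0005 in control samples. The log2 fold change was -0.73 ± 0.14 (p = 0.0317 in edgeR's exact test, adjusted p = 1). Of its counts, 52.9% were on protein-coding transcripts. NDUFB4, an accessory subunit of the membrane arm, had a CPM of 3.72, 6.08 and 4.91 against 8.54, 6.55 and 9.41, a log2 fold change of -0.77 ± 0.21 on 7 to 16 counts per sample. For NDUFV2 the nearest samples were knockdown sample 2 (11.5) and control sample 2 (14.4), and for NDUFB4 knockdown sample 2 nearly met control sample 2.

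UQCRC2, a core protein of complex III, was at a CPM of 33.96, 32.4 and 30.9 in knockdown and 39.9, 38.6 and 44.7 in control samples (log2 fold change -0.34 ± 0.073). NDUFA2 was at 29.8, 30.4 and 29.5 against 33.0, 33.4 and 35.9 (-0.19 ± 0.038). In these genes the spread within a group was small and so was the difference. The count of non-overlapping members depends on the libraries. It was 11 below and 10 above without knockdown sample 1, 7 and 2 without knockdown sample 2, 11 and 5 without knockdown sample 3, 6 and 3 without control sample 1, 20 and 5 without control sample 2, and 6 and 3 without control sample 3, where fewer samples have to be separated. Between 74 and 84 members were tested in these fits. The share of all genes was not computed for them, so these counts are no result about the members.

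The members with the most negative values did not separate the groups. ATP5F1E, the small epsilon subunit in the central stalk of ATP synthase, had the most negative log2 fold change, -1.23 ± 0.99. Its CPM was 0.930, 4.73 and 9.12 in knockdown and 19.9, 2.62 and 11.2 in control samples. NDUFS5, an accessory subunit of complex I, was at 0.930, 6.08 and 8.42 against 16.5, 4.58 and 8.24 (-0.98 ± 0.82). NDUFA12, another accessory subunit, was at 2.79, 6.75 and 4.21 against 9.11, 3.27 and 10.6 (-0.78 ± 0.52). In each of these genes knockdown sample 1 and control sample 2 were the 2 lowest samples. The same 2 samples had the lowest ribosomal protein shares, and they were the 2 lowest for 59 of 76 tested ribosomal protein genes (77.6%). Among tested members this order was found for 10 of 63 nuclear (15.9%) and 2 of 13 mitochondrial genes (15.4%), against 18.2% of all genes. The part of whatever sets the ribosomal protein share in these 3 genes was not tested. With that share as a covariate, in a fit chosen after seeing the data, their log2 fold changes were 0.70, 0.30 and 0.17, of the opposite sign. The share was lowest in the same 2 samples, and its mean was 0.307% in knockdown and 0.436% in control samples. This fit therefore cannot tell the share from the group or from those 2 samples.

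**Figure D5:**
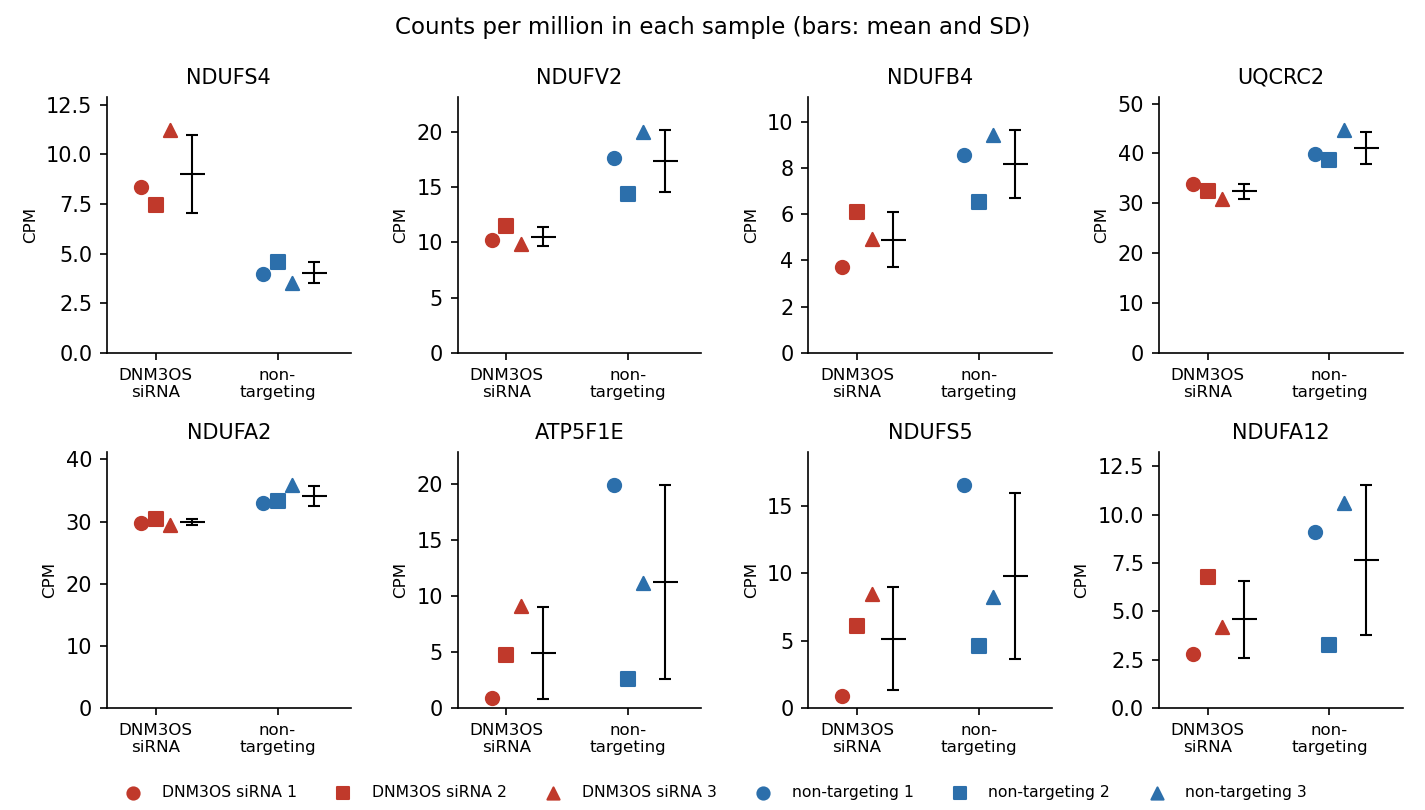
CPM of 8 nuclear members in each sample, with black bars for the mean and SD of 3 samples; each vertical axis starts at 0. In NDUFS4, NDUFV2, NDUFB4, UQCRC2 and NDUFA2 the groups do not overlap, and in ATP5F1E, NDUFS5 and NDUFA12 they do, with knockdown sample 1 and control sample 2 lowest.

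The next largest positive values were in UQCR10, COX6B2 and UQCRH, and the groups overlapped in each. UQCR10, a small complex III subunit, had a log2 fold change of 0.53 ± 1.40 from 24, 13 and 0 counts in knockdown and 21, 1 and 2 in control samples. COX6B2, with a mean of 33.6 counts per sample, was at 0.46 ± 0.37 and UQCRH at 0.36 ± 0.28. In UQCR10 the samples of each group spanned nearly the whole range. UQCRH and its near copy UQCRHL share 31-base stretches (18.1% of those of UQCRH), as do ATP5MG and ATP5MGL (10.7% of those of ATP5MGL), so the division of counts within these pairs is uncertain.

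Complex II, the one complex with no mitochondrially encoded subunit, showed values near or below 0. SDHA had a CPM of 40.5, 23.0 and 30.9 in knockdown and 42.7, 34.7 and 50.0 in control samples, a log2 fold change of -0.42 ± 0.27. SDHC was at -0.034 ± 0.14 and SDHD, its partner in the membrane, at -0.027 ± 0.24. CYC1, the cytochrome c1 of complex III, was at -0.41 ± 0.22, with a CPM of 13.02, 16.9 and 14.03 against 19.9, 14.4 and 23.5. In SDHA and CYC1 the lowest values were in knockdown samples and the groups overlapped.

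Several complex IV and V subunits exist as paralogs with different tissue use. Of the subunit 4 pair, COX4I1, the widely used form, had a mean TPM of 80.8, and COX4I2, the lung form, had 0 counts in every sample, which allows up to 3 counts or 1.606 to 1.970 CPM. COX8C and the readthrough gene NDUFC2-KCTD14 were also at 0. Of the subunit 6b pair, COX6B2, known from testis, was listed at a mean TPM of 15.6 and the ubiquitous COX6B1 at 9.65. COX6B2 shares 31.6% of its 31-base stretches with other quantified genes. COX6A1 stood at 14.96 and the muscle form COX6A2 at 4.63.

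COX7A2 and COX7A2L, the latter a factor in supercomplex formation, had mean TPMs of 50.3 and 47.3, and COX7A1, the heart and muscle form, 34.02. Their log2 fold changes were -0.0092 ± 0.48, -0.17 ± 0.22 and 0.060 ± 0.47. ATP5MC1, ATP5MC2 and ATP5MC3 encode the same mature ring subunit of ATP synthase. They stood at 27.7, 12.3 and 14.2 TPM, with log2 fold changes of 0.038 ± 0.33, -0.38 ± 0.46 and -0.17 ± 0.24. Each of these differences was smaller than its SE.

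The genes that assemble and supply the complexes were examined as lists. Tested were 13 of 16 assembly factors of complex I, 1 of 4 of complex II, 8 of 9 of complex III, 15 of 22 of complex IV and 4 of 6 of complex V. The exact test of edgeR called 0 of them in either direction. Their median log2 fold changes were -0.00097 (I), 0.37 (II, SDHAF4 alone), 0.076 (III), -0.070 (IV) and 0.081 (V), beside 0.0042 for all genes tested. At an unadjusted p below 0.05 there was 1 gene, COA5, an assembly factor of complex IV, with a log2 fold change of -0.78 ± 0.33 (p = 0.0408 in edgeR's exact test, adjusted p = 1).

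Of 30 genes for transcription, replication and RNA handling of mitochondrial DNA, 19 were tested and 0 were called or had an unadjusted p below 0.05. Their median was -0.061, with 11 lower and 8 higher. The summed TPM of this list was 1058 to 1111 in knockdown and 1183 to 1266 in control samples, a description with no test. A large part of it came from TEFM (215 to 251 in knockdown, 259 to 315 in control) and POLG (165 to 251 and 223 to 285). FASTKD4 was not found under that symbol and adds nothing to the sum. The mitochondrial RNA polymerase POLRMT was at -0.42 ± 0.36, its initiation factor TFAM at -0.28 ± 0.25 and the elongation factor TEFM at -0.33 ± 0.10, while the transcription termination factor MTERF1 was at 0.47 ± 0.20. Of the 19 genes, TEFM alone had all knockdown samples below the controls, and 3.56% of all tested genes did. These genes were singled out after their values were seen, as was COA5.

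Of 12 nuclear regulators of these genes 8 were tested (median 0.0010), of 21 electron carriers and feeders 16 (median 0.022) and of 19 genes of the TCA cycle and its pyruvate entry 15 (median 0.072), and 0 were called. In the TCA list 1 gene had an unadjusted p below 0.05. It was PDHX, a component of the pyruvate dehydrogenase complex, chosen after its value was seen, at -0.46 ± 0.098 (p = 0.0377 in edgeR's exact test, adjusted p = 1). Of the 16 carriers and feeders, 1 had all knockdown samples below all controls and 2 had them all above, against 3.56% and 4.42% of all tested genes. The first was cytochrome c (CYCS), which carries electrons from complex III to IV, at -0.13 ± 0.014, and the others were DHODH, which passes electrons from pyrimidine synthesis to ubiquinone, at 0.13 ± 0.038 and the choline dehydrogenase CHDH at 0.52 ± 0.33. These 3 were also chosen after their values were seen.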

How the data were processed

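The labels assigned 3 SKOV3 samples to DNM3OS siRNA and 3 to non-targeting siRNA. For each transcript the authors deposited an estimated count (kallisto 0.43.0 on Ensembl GRCh38 transcripts) and a TPM, scaled to length and sample. The deposited length and effective length were used for other descriptions. Estimated counts were summed per gene over the 155518 of 173259 transcripts found by identifier in GENCODE release 44 (93.6% to 95.2% of counts) and rounded to whole numbers. Genes were filtered with filterByExpr (minimum count 10), scaled by TMM, and the groups were compared by the exact test of edgeR 4.0.16 in R 4.3.3, adjusting p by Benjamini-Hochberg over all 11814 genes. A gene was called at a change of 2-fold or more and an adjusted p under 0.05. SEs come from log2 CPM with a prior count of 2, and the common biological coefficient of variation was 0.232. The CPM values printed use TMM-scaled library sizes, and shares use unscaled gene counts.

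The members and all lists were chosen with earlier results of these data known, so they are not independent support. Named were all mitochondrial members, complex II and CYC1, the 10 nuclear members with the highest TPM, the 5 largest increases and 5 largest decreases, members whose groups do not overlap, paralogs and readthrough genes. Of the genes this rule names, 1 is not reported here. Overlap with exons on the opposite strand and shared 31-base stretches were computed from the annotation and reference transcripts, and the sequences were read from GRCh38. Of the 675 member transcripts quantified, 555 had the same length in the annotation and held 82.9% of member counts.

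The exact test was checked on counts simulated for the comparison of knockdown with control. The 100 genes changed by 2 and the 100 changed by 1 on the log2 scale were drawn from genes above a minimum mean count. Of these, 97 and 41 were recovered, with 0 in the wrong direction and 18 false calls among 11289 genes. As alternatives, DESeq2 1.42.0 and the quasi-likelihood test (also blocked by replicate number) replaced the exact test. Further ones used RLE size factors, other filters, counts from length-scaled TPM, only protein-coding genes, totals without the most abundant or the mitochondrial genes, and leaving out each sample. Leaving out knockdown sample 1 with control sample 2, and the ribosomal protein share as a covariate, were chosen after seeing the data. The SEs and SDs printed come from the spread between samples, and floors cover counting error only.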

Additional observations from a re-analysis of the deposited data

How the results depend on the processing

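No member was called by any of the alternatives run, and the smallest adjusted p of a member was 0.176 (edgeR's exact test without knockdown sample 1 and control sample 2 together). The median of the mitochondrial genes stayed positive (0.043 to 0.25). All genes called down numbered 0 with the quasi-likelihood test, DESeq2 and the ribosomal protein covariate, 2 with no filter or the 1 CPM filter, 3 with length-scaled counts, and 0 to 3 when a single sample was left out (up 0 to 1). Without knockdown sample 1 and control sample 2 they were 31 down and 8 up. Non-overlapping members above numbered 2 with no filter, 7 below and 2 above with the 1 CPM filter, 27 and 15 without those 2 samples, and 6 to 20 and 2 to 10 without 1 sample. Members tested numbered 99 with no filter or the 1 CPM filter and 83 without those 2 samples. The share of all genes was not computed under these settings, so these counts are no result about the members. The cause was not tested, other than that fewer samples have to be separated.

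The nuclear median was -0.19 with no filter, -0.20 at 1 CPM, -0.17 length-scaled and -0.19 without both samples (-0.18 to -0.030 without 1). Complex I was -0.037 with the covariate (-0.20 to -0.062 without 1 sample), complex V 0.17 with the covariate, complex III -0.21 at 1 CPM and -0.40 without both samples (-0.31 to 0.035), and complex IV -0.19, -0.20 and -0.19 with no filter, at 1 CPM and without both (-0.21 to 0.085). By TPM the nuclear ratio of shares was 0.928.

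The replicate numbers 1 to 3 did not pair the samples. Deviations of same-numbered samples correlated at -0.396, -0.337 and 0.233. With the replicate number as a block 0 genes were called down, ATP5PD was at -0.054 and COX7A2 at 0.032, against 0.0085 and -0.0092.

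Signs also turned in named genes with small differences. With length-scaled counts ATP5PD was at -0.030, NDUFA3 -0.079, ATP5F1C 0.077 and ATP5MC1 -0.027. With protein-coding genes only MT-ATP6 was at 0.0030 and COX7A2 at 0.017, and without mitochondrial genes ATP5PD at -0.0016. Without both samples MT-CO2 was at -0.076, MT-ND1 0.015, SDHC 0.030, UQCR10 -0.54 and COX7A2L 0.052. With the covariate MT-ND1 was at 0.27, MT-ND6 -0.025, COX5B 0.043, COX4I1 0.37, ATP5F1E 0.70, NDUFS5 0.30, NDUFA12 0.17, COX7A1 -0.31, COX7A2 0.285, ATP5MC1 -0.32 and ATP5MC3 0.19.

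Leaving out each sample in turn gave MT-ATP6 -0.12 to 0.058, MT-ATP8 -0.20 to 0.26, MT-CO1 -0.15 to 0.33, MT-CO2 -0.039 to 0.16, MT-ND1 -0.29 to 0.14, MT-ND2 -0.052 to 0.30, MT-ND3 -0.0044 to 0.14, SDHC -0.11 to 0.0996, SDHD -0.16 to 0.15, ATP5PD -0.24 to 0.27, ATP5F1C -0.45 to 0.00998, COX5B -0.14 to 0.018, ATP5MG -0.15 to 0.32, COX4I1 -0.425 to 0.085, ATP5F1A -0.11 to 0.019, UQCR10 -0.049 to 2.77, COX7A1 -0.30 to 0.33, COX7A2 -0.33 to 0.26, ATP5MC1 -0.15 to 0.44 and ATP5MC3 -0.34 to 0.00035. The sign turned in 1 to 4 of the 6 fits for each. NDUFS4 (0.97 to 1.25) and NDUFV2 (-0.83 to -0.62) kept theirs.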
